A study of Mus musculus with 6 samples.

Results

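Transcripts of 10 genes that intestinal epithelium makes when it meets microbes or inflammation were followed through the duodenum of control and Nkx2.2 mutant mice: Duox2, Duoxa2, Nos2, Saa1, Saa2, Saa3, Ubd, Lcn2, B3galt5 and Pigr. They were taken by gene name, 10 of 23699 gene models, and each name matched 1 row. The set was selected on FPKM values of these same 6 libraries, with its relation to Reg3b, an antibacterial lectin of the same epithelium, already known. The levels per library and their order against Reg3b are therefore given as a description, without a test.

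RNA came from the 2 cm of duodenum next to the stomach, taken as whole tissue from adult mice of 6 weeks on a mixed background. The 3 control samples were Nkx2.2flox/+, with 1 floxed allele and no Cre listed. The 3 mutant samples were Nkx2.2flox/flox; Villin-Cre/+, in which the villin promoter drives Cre in the intestinal epithelium, and mutant 3 also carried Rosa26Tomato/+, a fluorescent reporter allele. A floxed allele is shared by all 6 samples, while Cre is listed for mutants only, so loss of Nkx2.2 and the presence of Cre cannot be told apart. No label states that each sample is a separate animal, so a p-value here speaks of the spread among the samples, which may be technical. Levels are FPKM, fragments per kilobase of transcript scaled to the depth of the library, which was 20.9 to 26.3 M fragments. Nkx2-2, the targeted homeodomain factor of endocrine cells, was 1.13, 1.32 and 0.779 FPKM in control libraries 1 to 3 and 1.10, 0.736 and 0.221 FPKM in mutant libraries 1 to 3. These ranges overlapped, so the transcript level of the targeted gene does not separate the labels by itself.

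In the gut these genes form several arms of surface defence. Duox2 is an oxidase of the apical membrane that releases hydrogen peroxide, and Duoxa2 is the maturation factor that Duox2 needs to leave the endoplasmic reticulum. Nos2 is the inducible synthase that makes nitric oxide from arginine. Saa1, Saa2 and Saa3 are serum amyloid A proteins, lipid carriers best known from the acute phase response of the liver and also made by epithelium. Ubd is a ubiquitin-like modifier that marks proteins for the proteasome and is known to respond to tumour necrosis factor and interferon gamma. Lcn2 withholds iron from bacteria by binding their siderophores, B3galt5 adds galactose to the sugar chains of glycoproteins and glycolipids, and Pigr carries dimeric IgA across the epithelium into the lumen. Several of them are known targets of NF-kB, of C/EBP factors or of STAT proteins downstream of IL-22, IL-17 and bacterial signals.

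The members Saa1 and Saa2 are near copies, and which of them was expressed depends on reads being assigned to the right one. Bases 72 to 360 of their coding sequences (GENCODE M1, mm9), the stretch that holds every difference, are shown because Saa1 RNA was found in a pair of libraries that had almost no Saa2; capitals mark the bases at which they differ.

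Saa1: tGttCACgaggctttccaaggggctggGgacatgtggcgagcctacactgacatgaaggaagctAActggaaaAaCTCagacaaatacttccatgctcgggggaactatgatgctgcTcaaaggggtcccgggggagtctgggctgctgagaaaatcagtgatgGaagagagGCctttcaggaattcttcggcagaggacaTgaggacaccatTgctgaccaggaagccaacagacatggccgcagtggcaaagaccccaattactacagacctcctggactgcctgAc
Saa2: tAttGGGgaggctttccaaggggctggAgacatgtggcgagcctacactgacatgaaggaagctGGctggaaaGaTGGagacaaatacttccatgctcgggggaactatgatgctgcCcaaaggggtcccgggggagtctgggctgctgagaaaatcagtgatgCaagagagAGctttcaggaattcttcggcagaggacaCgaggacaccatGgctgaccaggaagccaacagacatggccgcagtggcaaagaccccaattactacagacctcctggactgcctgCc

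Both coding sequences are 369 bases long and differ at 18 bases, an identity of 95.1%. The transcripts were 93.1% identical, yet 0 of the 505 stretches of 101 bases in Saa1, the read length fitted from the files, occurred in Saa2. Saa1 and Saa3 were 77.5% identical over the coding sequence. Reads as long as these can thus tell Saa1 from Saa2 where they match exactly; how the authors' counting treated reads with mismatches is not given in the sources used here. Of the other members, Duox2 shared 129 of its 6895 such stretches with Duox1, and the remaining members shared 0.

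The promoters of 6 members are printed below as the 250 bases before the transcription start (mm9), because each held a kappa-B or C/EBP match among the motifs searched for at all members. Capitals mark matches on either strand to the kappa-B consensus of NF-kB or to the C/EBP half-palindrome TTGCNNAA; no matches overlapped.

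Nos2 (chr11:78734111-78734360, plus strand): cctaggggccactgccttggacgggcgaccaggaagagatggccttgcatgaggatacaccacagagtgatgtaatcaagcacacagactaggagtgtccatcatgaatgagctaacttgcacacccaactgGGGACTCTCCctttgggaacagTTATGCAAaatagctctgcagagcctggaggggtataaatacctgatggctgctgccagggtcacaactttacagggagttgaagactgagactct
Ubd (chr17:37330587-37330836, plus strand): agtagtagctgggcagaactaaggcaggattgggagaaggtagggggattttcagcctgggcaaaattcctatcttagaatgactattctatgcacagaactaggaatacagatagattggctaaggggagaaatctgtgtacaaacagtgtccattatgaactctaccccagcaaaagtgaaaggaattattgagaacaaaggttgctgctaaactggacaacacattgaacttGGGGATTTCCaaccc
Saa1 (chr7:53998351-53998600, minus strand): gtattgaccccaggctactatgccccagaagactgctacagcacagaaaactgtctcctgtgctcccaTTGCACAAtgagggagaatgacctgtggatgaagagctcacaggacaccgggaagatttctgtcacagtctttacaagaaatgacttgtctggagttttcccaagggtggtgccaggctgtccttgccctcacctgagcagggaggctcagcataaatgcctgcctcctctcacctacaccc
Saa2 (chr7:54006953-54007202, plus strand): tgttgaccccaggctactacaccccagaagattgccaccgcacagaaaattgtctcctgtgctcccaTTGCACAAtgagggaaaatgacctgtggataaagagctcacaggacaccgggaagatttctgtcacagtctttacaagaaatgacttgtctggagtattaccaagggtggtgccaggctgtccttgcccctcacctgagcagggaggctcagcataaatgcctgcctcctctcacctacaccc
Saa3 (chr7:53971047-53971296, minus strand): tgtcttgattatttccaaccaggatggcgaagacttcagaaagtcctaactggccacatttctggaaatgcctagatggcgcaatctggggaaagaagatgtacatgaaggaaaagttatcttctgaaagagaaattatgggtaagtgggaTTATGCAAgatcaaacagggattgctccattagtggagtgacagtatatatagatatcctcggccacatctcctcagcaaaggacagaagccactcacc
Lcn2 (chr2:32243260-32243509, minus strand): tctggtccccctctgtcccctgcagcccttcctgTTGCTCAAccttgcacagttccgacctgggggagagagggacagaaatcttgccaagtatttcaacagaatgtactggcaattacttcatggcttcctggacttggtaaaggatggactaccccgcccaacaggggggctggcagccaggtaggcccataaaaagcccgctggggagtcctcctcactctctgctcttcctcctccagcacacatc

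Nos2 held a kappa-B match, GGGACTCTCC, 108 bases before the start and a C/EBP match, TTATGCAA, 88 bases before it. Ubd held the kappa-B match GGGGATTTCC, 5 bases before the start. The C/EBP match was TTGCACAA in Saa1 and Saa2, 174 and 175 bases before the start, TTATGCAA in Saa3 at 91 bases and TTGCTCAA in Lcn2 at 208 bases. Saa1 and Saa2 had 238 of 250 promoter bases in common although their levels differed. With B3galt5 counted at both of its starts, 2 of 11 member windows held the kappa-B consensus and 5 of 11 the C/EBP letters, against 7.88% and 8.47% of 24340 windows of the same length at all annotated starts. The STAT letters TTCNNNGAA occurred in 1 of 11 windows, at the upstream start of B3galt5 that carried almost no RNA, and in 6.71% of all windows. Duox2, Duoxa2 and Pigr held none of these letters, which says only that they are not in this window. The 5 windows with C/EBP letters include Saa1, Saa2 and Saa3 of a single gene family, and Saa1 and Saa2 are nearly identical here. These windows are therefore not independent, and nothing is read from the counts.

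Duox2 (chromosome 2, 122106173 to 122123901, minus strand) and Duoxa2 (chromosome 2, 122124636 to 122128621, plus strand) lie head to head, with 734 bases between their starts. Both were scarce in controls 1 and 2 and more abundant in control 3 and in the mutants. Duox2 was 0.754, 0.940 and 6.97 FPKM in control libraries 1 to 3 and 6.81, 2.77 and 7.90 FPKM in mutant libraries 1 to 3. Duoxa2 was 1.38, 1.36 and 16.1 FPKM in control libraries 1 to 3 and 14.2, 5.77 and 15.5 FPKM in mutant libraries 1 to 3. For both genes control 3 reached the level of mutants 1 and 3, mutant 2 was intermediate, and the groups overlapped through control 3. The ratio of Duoxa2 to Duox2 FPKM stayed between 1.45 and 2.31 in the 6 libraries while each gene ranged over 10.5-fold and 11.8-fold. These levels rested on 86.0 to 718 fragments for Duox2 and on 41.0 to 476 for Duoxa2. In whole tissue, more cells that make a transcript and more transcript per cell cannot be told apart, here or for any member below. The paralogs Duox1 and Duoxa1 were at most 0.157 and 0.219 FPKM in any library.

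Nos2 (chromosome 11, 78734361 to 78773626, plus strand) was low in the whole duodenum and highest in the 2 libraries numbered 3. It was 0.544, 0.619 and 2.85 FPKM in control libraries 1 to 3 and 0.348, 0.111 and 1.72 FPKM in mutant libraries 1 to 3. Each mutant was below the control of its own number, but mutant 3 was above controls 1 and 2, so the groups overlapped. Between 9.99 and 231 fragments stood behind these values, and the FPKM of mutant 2 is the least precise.

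The 3 serum amyloid genes lie within 42317 bases on chromosome 7 and behaved differently from each other. Saa1 (53995869 to 53998350, minus strand) was listed at 0 in controls 1 and 2 and reached 12.1 FPKM in control 3, from 103 fragments. In mutants 1 to 3 it lay at 0.118, 0.106 and 5.53 FPKM, the first and second of which were 1 fragment each, and the third 46.0 fragments. Saa1 RNA was thus found in both libraries numbered 3 and was at or below 1 fragment in the other 4. Saa2 (54007203 to 54009684, plus strand) was listed at 0 in control 1 and in all 3 mutants and was 1 fragment in controls 2 and 3, at 0.115 and 0.117 FPKM. Saa2 therefore gave no measurable level in any library, control 3 and mutant 3 included. Saa3 (53967368 to 53971046, minus strand) was detected in every library, with 1.66, 2.86 and 9.89 FPKM in control libraries 1 to 3 and 2.20, 2.09 and 7.89 FPKM in mutant libraries 1 to 3. Its 2 highest values were again those of control 3 and mutant 3, on 14.0 to 68.0 fragments. Saa4, the constitutive member of the family, was listed at 0 in all 6 libraries.

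Ubd (chromosome 17, 37330837 to 37333046, plus strand) had the widest spread of the tested members. It was 13.9, 2.71 and 122 FPKM in control libraries 1 to 3 and 2.07, 1.85 and 59.9 FPKM in mutant libraries 1 to 3. Control 3 and mutant 3 were far above the others, control 1 was intermediate, and the remaining 3 libraries lay within 1.85 to 2.71 FPKM. Ubd rested on 32.0 to 1895 fragments.

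Lcn2 (chromosome 2, 32240157 to 32243259, minus strand) was 4.92, 8.57 and 17.9 FPKM in control libraries 1 to 3 and 3.00, 2.09 and 17.6 FPKM in mutant libraries 1 to 3. Control 3 and mutant 3 were almost equal, and mutants 1 and 2 were below every control. B3galt5 (chromosome 16, 96457408 to 96541465, plus strand) followed the same course more steeply, with 2.92, 8.26 and 51.6 FPKM in control libraries 1 to 3 and 2.15, 1.63 and 50.7 FPKM in mutant libraries 1 to 3. Of its 2 transcript models the shorter, 4914 bases long with its start inside the locus, carried the whole level. Its level in control 3 and mutant 3 differed by less than 1 FPKM, while the other 4 libraries were at 8.26 FPKM or less.

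Pigr (chromosome 1, 132723261 to 132748826, plus strand) was by far the most abundant member and the steadiest. It was 1426, 1765 and 1671 FPKM in control libraries 1 to 3 and 1559, 1278 and 1632 FPKM in mutant libraries 1 to 3, a range of 1.38-fold over 110725 to 139960 fragments. Its highest value was in control 2 and its lowest in mutant 2. On the log2 scale its SD over the 6 libraries was 0.17, above that of 44.7% of the 13596 tested gene rows, whereas each of the other 7 tested members had an SD above that of 97.8% to 99.8% of rows. The median SD was 1.22 for the 8 tested members and 0.18 for all tested rows. Since the members were selected on these same values, nothing is read from their larger spread.

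**Figure D1:**
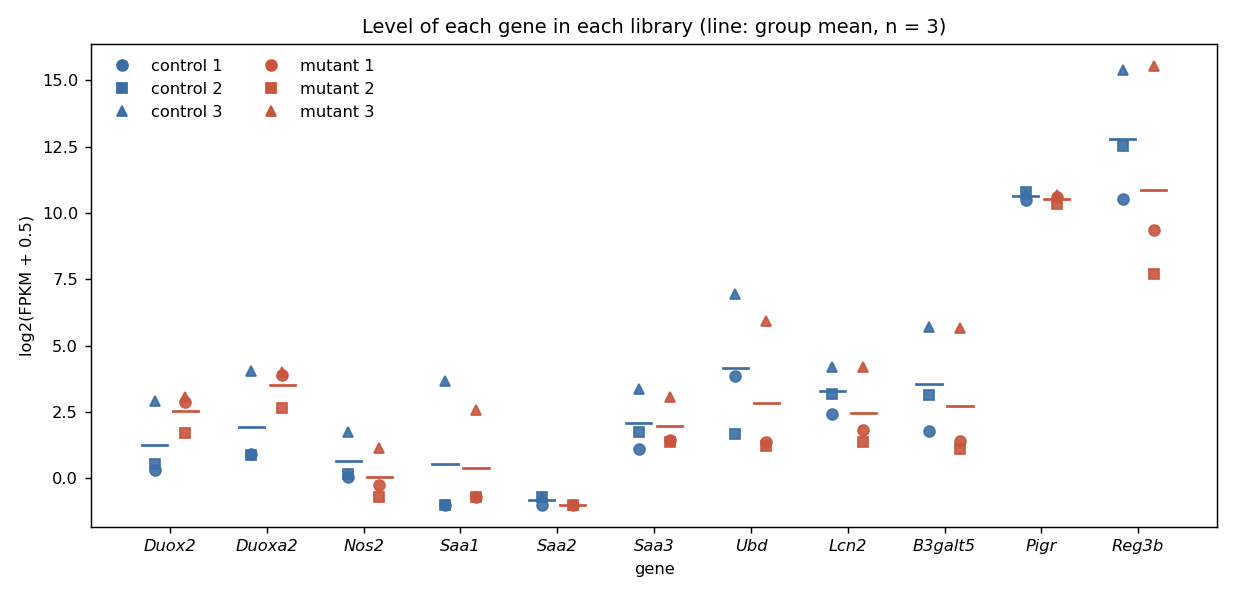
Level of each member and of Reg3b in each library, on the vertical axis as log2(FPKM + 0.5), with controls in blue, mutants in red, one marker shape per replicate number and a line at the mean of each group's 3 log2 values. The triangles of control 3 and mutant 3 sit at the top for 8 of 10 members, Saa2 and Pigr excepted; for Duox2 and Duoxa2 mutant 1 lies close to them.

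By mean FPKM per group, Pigr stood first at 1620 ± 175 in controls and 1490 ± 187 in mutants (SD, n = 3 each). Ubd followed at 46.1 ± 65.7 and 21.3 ± 33.4, then B3galt5 at 20.9 ± 26.7 and 18.2 ± 28.2. Lcn2 reached 10.5 ± 6.71 and 7.56 ± 8.70, and Duoxa2 6.27 ± 8.48 and 11.8 ± 5.28. Saa3 averaged 4.80 ± 4.44 and 4.06 ± 3.31, Saa1 4.04 ± 6.99 and 1.92 ± 3.13, Duox2 2.89 ± 3.53 and 5.83 ± 2.70, and Nos2 1.34 ± 1.31 and 0.725 ± 0.867. From Ubd downward, neighbours in this order differed in controls by less than the larger of their SDs. In mutants Duoxa2 stood above Lcn2 and Duox2 above Saa3 and Saa1. For Ubd, B3galt5, Duoxa2, Saa1 and Duox2 the control SD was above the control mean, since control 3 held most of the RNA.

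Reg3b itself was 1467, 5823 and 42934 FPKM in control libraries 1 to 3 and 651, 207 and 47743 FPKM in mutant libraries 1 to 3. Its paralog Reg3g was 484, 1915 and 13426 FPKM in control libraries and 282, 96.0 and 14609 FPKM in mutant libraries, in the same order of libraries. Both libraries numbered 3 were above the other 4 for 8 of 10 members; the same held for 25.9% of the tested gene rows and for 17.4% of all rows. Since the members were chosen with this relation known, nothing is read from that count.

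How closely a member followed Reg3b differed between members. Over the 15 pairs of libraries, Nos2, Lcn2 and B3galt5 were in the same order as Reg3b in 14, Ubd in 13, Saa3 in 12, Duox2 and Pigr in 11, and Duoxa2 and Saa1 in 9. Among the 4 libraries not numbered 3, Nos2, Lcn2 and B3galt5 kept the order of Reg3b in 6 of 6 pairs. The members were selected on these libraries too, and the share of all rows with this order was not counted. Both controls here had more Reg3b than both mutants, so the order is in part that of the genotypes. In those 4 libraries Reg3b, Nos2, Lcn2 and B3galt5 all descended from control 2 through control 1 and mutant 1 to mutant 2. Duox2 and Duoxa2 kept that order in only 2 and 1 of the 6 pairs, because mutants 1 and 2 had more of both than controls 1 and 2 while having less Reg3b. Ubd and Pigr kept it in 5 of 6, Saa3 in 4, and Saa1, with 1 fragment at most in these libraries, in 1. The points share their library and depth, and 6 libraries that fall into separate groups allow no pooled correlation.

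**Figure D2:**
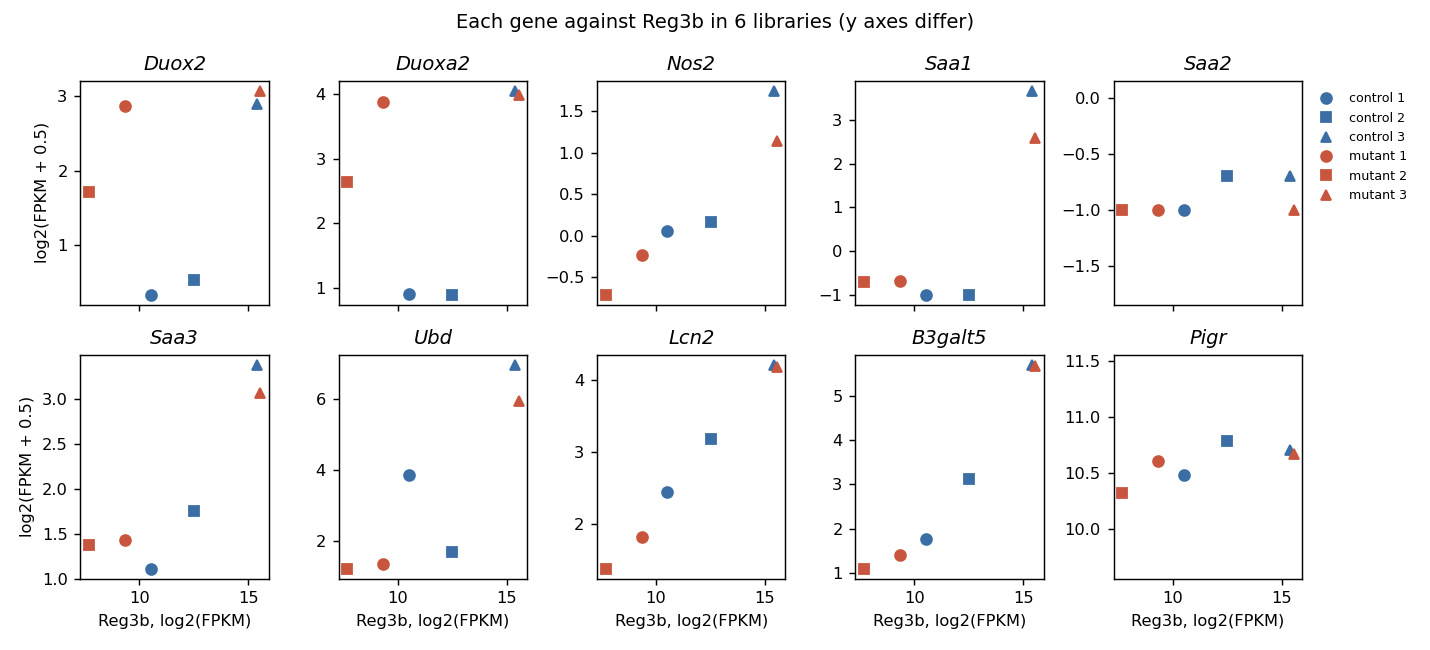
Each member, in its own panel with its own vertical axis, against Reg3b in the 6 libraries, both on a log2 scale. Nos2, Lcn2 and B3galt5 climb along with Reg3b through the lower 4 libraries, whereas Duox2 and Duoxa2 have mutants 1 and 2 high at the left, where Reg3b is 651 and 207 FPKM.

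The comparison between the genotypes asked whether mutants differed from controls in these transcripts. Of the 10 members 8 passed the filter, which asked for 0.5 FPKM or more in 3 or more libraries, and by limma 0 were called higher and 0 lower at an adjusted p of 0.05, where 0.0221% of all tested rows were called. No member had an unadjusted p under 0.05; these ran from 0.165 to 0.878 by limma, and 467 of all tested rows were under 0.05. The limma adjusted p was 0.999 for every tested member. Duox2 was higher in mutants by a log2 change of 1.30 ± 0.81 (SE, on the log2(FPKM + 0.5) scale) and Duoxa2 by 1.56 ± 1.02. Yet for both genes control 3 was above mutants 1 and 2. The other 6 tested members had lower means of log2 values in mutants: Nos2 at -0.59 ± 0.65, Saa3 at -0.12 ± 0.76, Ubd at -1.32 ± 1.98, Lcn2 at -0.82 ± 0.90, B3galt5 at -0.81 ± 1.71 and Pigr at -0.12 ± 0.18. None of these 6 differences was larger than its SE, and neither Duox2 nor Duoxa2 passed the test. The median over the tested members was -0.36, beside -0.021 over all tested rows. In 0 of 10 members were the 3 mutants all above or all below the 3 controls, which held for 7.75% of tested rows.

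Saa1 and Saa2 were under the filter, and for them the two-sided exact permutation p was 1.0 and 0.4, where 3 against 3 samples cannot go below 0.1. The sign of 4 members turned when single libraries were left out. Without control 3 the log2 change was 0.071 for Ubd, 0.27 for B3galt5, 0.53 for Saa3 and 1.39 for Saa1, each positive, and still not called. Saa1 was also positive without mutant 1 (0.38) or mutant 2 (0.40), as was Saa3 (0.14 and 0.17), and B3galt5 was 0.0048 without mutant 2. With both libraries numbered 3 left out, an alternative chosen after the data were seen, the 2 mutants and 2 controls gave 1.86 ± 0.42 for Duox2, 2.36 ± 0.47 for Duoxa2 and -1.22 ± 0.28 for Lcn2. Their limma adjusted p values were 0.211, 0.228 and 0.161, so 0 members were called there too, where 1.4% of tested rows were. In the authors' deposited table, made from counts with DESeq per its name, 0 members and 26 of 18605 rows had an adjusted p under 0.05. The mutant to control fold in the authors' deposited table was 2.07 for Duox2, 1.90 for Duoxa2, 0.545 for Nos2, 0.487 for Saa1, 0.445 for Ubd, 0.719 for Lcn2, 0.847 for B3galt5, 0.899 for Saa3 and 0.939 for Pigr.

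Samples of the same number were set against each other because number 3 stood apart in both groups. For numbers 1 and 2 the pairs are by label only. Within number 3, where Reg3b was about equal, the log2 difference of mutant minus control was 0.17 for Duox2, -0.052 for Duoxa2, -0.025 for Lcn2, -0.025 for B3galt5 and -0.034 for Pigr. Ubd at -1.02, Saa1 at -1.06 and Nos2 at -0.60 were lower in mutant 3 than in control 3. Within numbers 1 and 2, Duox2 was higher in the mutant by 2.54 and 1.18 and Duoxa2 by 2.97 and 1.75. Lcn2 was lower in the mutant there, at -0.63 and -1.81, and so was Ubd, at -2.49 and -0.45. The oxidase pair and the siderophore binder thus had opposite signs in the same 2 pairs of libraries. Nos2 was lower in the mutant in all 3 pairs, by 0.30 to 0.87 in size; whether these differences depend on the number was not tested.

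**Figure D3:**
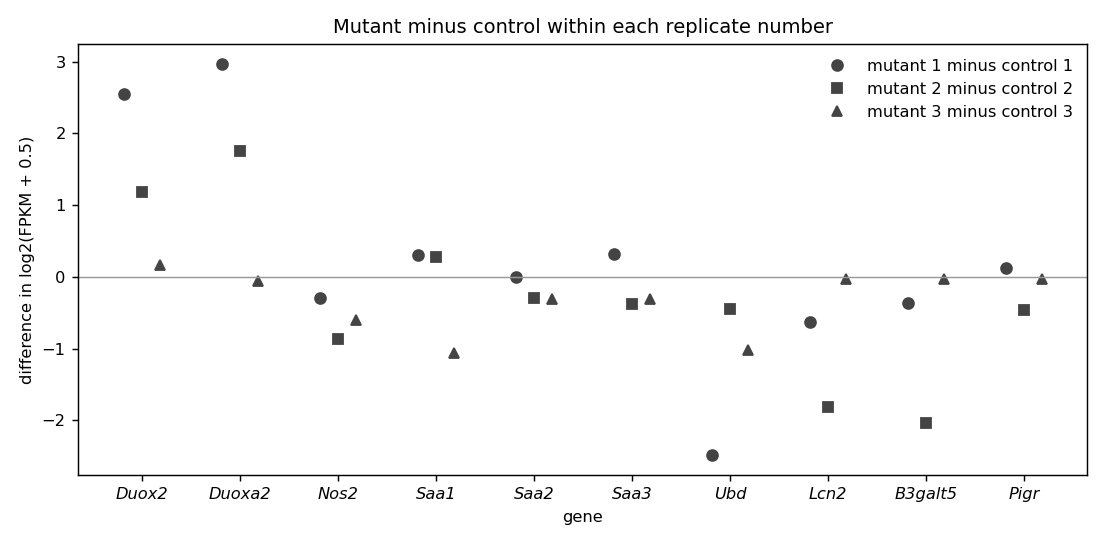
Difference of mutant minus control in log2(FPKM + 0.5) for each member within each replicate number, with the line at 0 marking equal levels. Duox2 and Duoxa2 are above 0 in pairs 1 and 2 and near 0 in pair 3, Nos2 is below 0 in all 3 pairs, and Ubd, Lcn2 and B3galt5 are below 0 in all 3, the last 2 only slightly in pair 3.

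Genes that work with the members were read from lists that did not include them. Across the 11 pathway lists, 0 of 142 tested entries rose and 0 fell in mutants by limma, where 13 had an unadjusted p under 0.05. Each list is given below by its median log2 change, mutant minus control, and by how many tested rows had both libraries numbered 3 highest. A gene with several rows or in several lists counts each time. The share over all tested rows is the 25.9% above.

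Among 10 tested NADPH oxidase subunits and maturation factors the median change was 0.014, and 4 were highest in both libraries numbered 3. Rac1, the small GTPase that activates several oxidases, was flat at 240 to 262 FPKM. Cyba, the membrane partner of the Nox enzymes, was 81.8, 76.3 and 135 FPKM in control libraries 1 to 3 and 59.3, 38.9 and 128 FPKM in mutant libraries 1 to 3. Nox1, an epithelial oxidase picked after its values were seen, was 0.720, 0.495 and 2.42 FPKM in control libraries and 0.159, 0.028 and 2.58 FPKM in mutant libraries. Nox1 and Cyba were thus highest where Reg3b was highest and lowest in mutants 1 and 2, while Duox2 was lowest in controls 1 and 2. Nox1 rested on 0.999 to 80.0 fragments, so its lowest value is imprecise. For the 9 tested genes of arginine and nitric oxide metabolism the median was 0.097, and 2 were highest in both libraries numbered 3. Arg2, an arginase that draws on the same substrate as Nos2, was the most abundant and had the opposite order, with its 2 lowest values in control 3 (465 FPKM) and mutant 3 (492 FPKM) against 602 to 859 FPKM elsewhere. Asl, which regenerates arginine, lay between 19.1 and 21.4 FPKM.

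Of 10 tested acute phase and metal-withholding proteins 7 were highest in both libraries numbered 3, with a median change of -0.19. Ltf, the iron binder lactoferrin, was 1.78, 3.30 and 9.26 FPKM in control libraries 1 to 3 and 2.25, 0.729 and 6.97 FPKM in mutant libraries 1 to 3. Lrg1, an acute phase glycoprotein, was 2.67, 3.09 and 6.32 FPKM in control libraries and 2.14, 1.91 and 6.60 FPKM in mutant libraries. Both had their 2 highest values in control 3 and mutant 3, as Lcn2 and Saa3 did. Of 10 tested enzymes of ubiquitin-like modifiers and the immunoproteasome 3 were highest in both, with a median change of 0.21. Psmb8 and Psmb10, immunoproteasome subunits, lay at 103 to 255 and 127 to 251 FPKM, a much narrower range than that of Ubd.

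Among 13 tested epithelial glycosyltransferases 7 were highest in both libraries numbered 3, with a median of 0.11. B4galnt2 lay at 207 to 253 FPKM, and St3gal4, a sialyltransferase, at 3.90 FPKM in control 1 against 191 to 827 FPKM in the other 5. Of 8 tested genes of IgA transport and attraction 4 were highest there, with a median of -0.051. Igj, the joining chain that Pigr binds in dimeric IgA, was 799, 899 and 1561 FPKM in control libraries 1 to 3 and 767, 700 and 1423 FPKM in mutant libraries 1 to 3. The joining chain thus had its 2 highest values in control 3 and mutant 3, while Pigr did not. Ccl25, a chemokine of the small intestine, lay at 434 to 570 FPKM.

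Of 6 tested inducing cytokines 1 was highest in both libraries numbered 3, with a median change of 0.33. Il18 lay at 106 to 188 FPKM and Il33 at 6.66 to 17.5 FPKM. Il22, an inducer of Reg3b picked after its values were seen, was under the filter, with 0.043, 0.026 and 0.427 FPKM in control libraries 1 to 3 and 0, 0 and 0.544 FPKM in mutant libraries 1 to 3. Its highest value stood for about 10 fragments, so its level rests on few molecules. Among 17 tested receptors of these cytokines 7 had control 3 and mutant 3 highest, with a median of -0.091. Ifngr2 averaged 118 ± 7.78 FPKM over controls and 150 ± 10.9 FPKM over mutants (SD, n = 3 each), and Tnfrsf1a at 97.0 ± 10.7 and 100 ± 9.01 FPKM.

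Of 22 tested genes of NF-kB and STAT signalling 13 were highest in both libraries numbered 3, with a median change of -0.025. Socs3, an inhibitor that STAT3 induces, was picked after its values were seen and was 6.55, 8.30 and 26.5 FPKM in control libraries 1 to 3 and 7.29, 5.63 and 29.8 FPKM in mutant libraries 1 to 3. Irf1 lay at 93.8 to 137 FPKM, and Nfkbia, the inhibitor that NF-kB induces, at 55.5 to 80.1 FPKM. Nfkbia had its 2 highest values in control 3 and mutant 3, with a much smaller step than Socs3. Of 14 tested pattern recognition receptors 10 had both libraries highest, with a median of -0.17. Pglyrp1, a peptidoglycan binder, was 114, 172 and 301 FPKM in control libraries and 106, 92.7 and 203 FPKM in mutant libraries, and Nlrp6 at 55.7 to 78.5 FPKM. Of 23 tested rows in a list of other microbe-induced epithelial genes, which holds Reg3b and Reg3g, 13 were highest there, with a median of 0.16. Sprr2a2 fills 2 of these rows, both highest there. Tifa, an adaptor of NF-kB signalling picked after its values were seen, was 3.60, 8.02 and 47.3 FPKM in control libraries 1 to 3 and 5.34, 3.44 and 51.8 FPKM in mutant libraries 1 to 3, close to B3galt5 in level.

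**Figure D4:**
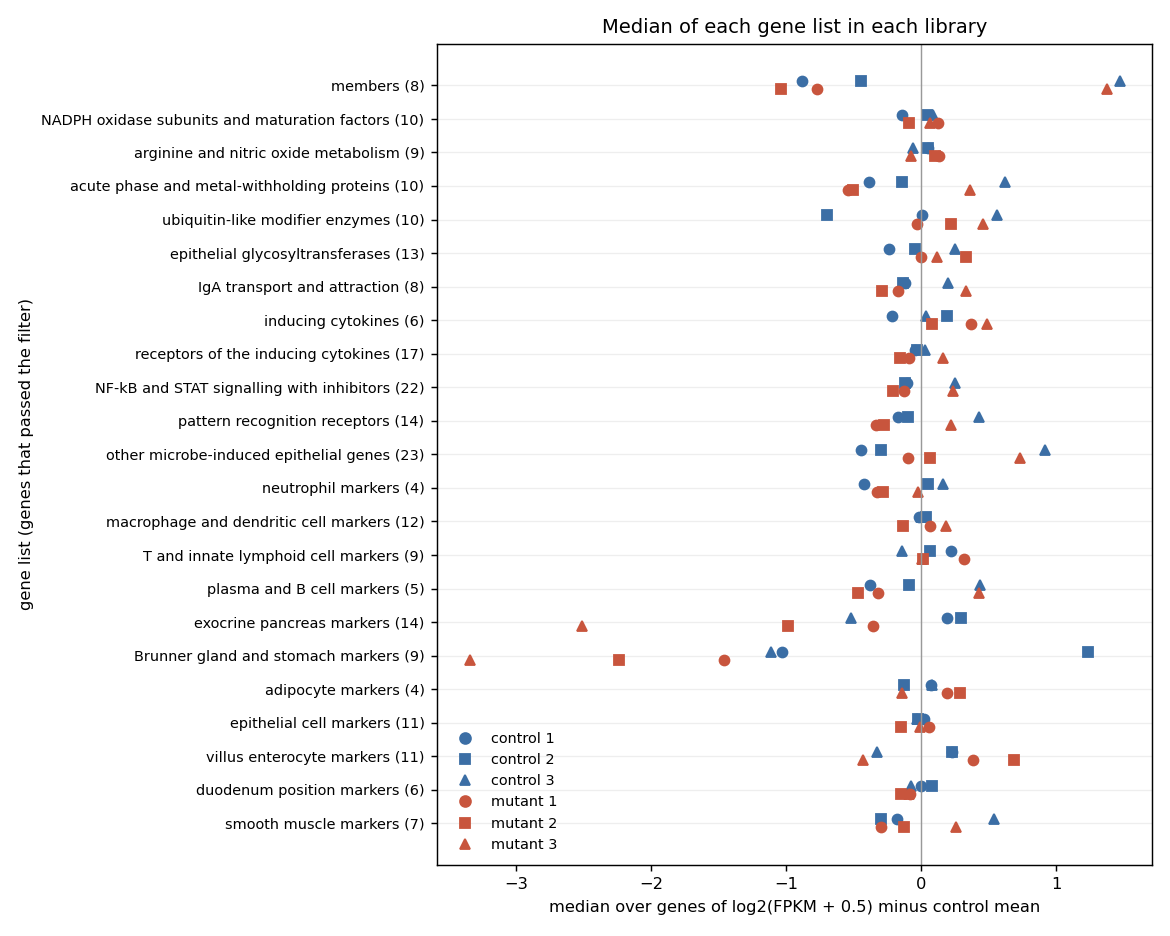
Median over the tested rows of each list of log2(FPKM + 0.5) minus the row's control mean, for each library. The number of rows is in brackets. The members have control 3 and mutant 3 at 1.47 and 1.38 and the other 4 libraries between -1.04 and -0.45, while NADPH oxidase and arginine genes stay near 0 and villus enterocyte markers run the other way.

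Markers of the cells in the tissue were summed per library. Across 13 marker lists 0 of 97 tested entries rose and 0 fell in mutants by limma, where 9 had an unadjusted p under 0.05. Duodenum position markers were present, at summed 797 to 1048 FPKM, and those of ileum and colon were near 0, at 1.49 to 2.58 FPKM, with Hoxd10 and Car1 listed at 0. The summed level of the 11 epithelial markers, led by Krt8 and Krt20, was 5578 to 6472 FPKM in controls and 5570 to 6532 FPKM in mutants.

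Several marker sums differed between the libraries numbered 3 and the others, as the members did. Over all tested gene rows, both libraries numbered 3 were lowest in 11.4% and highest in 25.9%. Villus enterocyte markers, led by Apoa1 and Apoa4, summed to 18954 FPKM in control 3 and 22877 FPKM in mutant 3, against 37659 to 47700 FPKM in the other 4, and 7 of 11 were lowest in both. Smooth muscle markers, led by Acta2 and Tagln, summed to 977 and 773 FPKM in control 3 and mutant 3 against 489 to 592 FPKM, and 7 of 7 were highest in both. Plasma and B cell markers, led by Igj and Sdc1, summed to 1633 and 1487 FPKM against 746 to 960 FPKM, with 4 of 5 highest in both. The T and innate lymphoid sum, led by Gzma and Gzmb, was 210 and 240 FPKM against 271 to 345 FPKM, with 4 of 9 tested markers lowest in both and 1 highest. That of macrophages and dendritic cells, led by Lyz2 and C1qa, was 365 and 419 FPKM against 273 to 345 FPKM, but of its 12 markers 4 were highest and 3 lowest in both, so the sum follows a few abundant genes. The part of these cells in the levels of the members was not tested.

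Neutrophils also make Lcn2, and their markers differed in level and moved in different directions. Elane and Mpo were listed at 0 in all 6 libraries, and the neutrophil sum, led by Retnlg and Mmp9, was 22.0 to 23.9 FPKM in controls and 21.7 to 34.6 FPKM in mutants, with 22.0 and 21.7 in control 3 and mutant 3. Of the 4 tested neutrophil markers 1, S100a9, was highest in both of these libraries and was named after its values were seen. It was at 1.51 and 0.859 FPKM there against 0.274 to 0.756 FPKM elsewhere, on only 2.00 to 9.01 fragments per library. The part of neutrophils in the level of Lcn2 was not tested. The liver is the main source of Saa1 and Saa2. Of its markers Fga, Fgb and Fgg were listed at 0 in all libraries, and the sum, led by Ttr and Apoh, was 3.98 to 9.55 FPKM in controls and 4.15 to 9.29 FPKM in mutants. Ttr made up most of that sum and was lowest in control 3 and mutant 3, while Apoh was 0.664, 0.329 and 0.669 FPKM in control libraries 1 to 3. The part of liver RNA in the level of Saa1 was not tested. Exocrine pancreas markers, led by Ctrb1 and Cela2a, summed to 14227 to 22967 FPKM in controls and 3192 to 14101 FPKM in mutants. Markers of Brunner glands and stomach, led by Tff2 and Gkn3, summed to 2790 to 8734 and 159 to 4947 FPKM, and those of adipocytes, led by Cidec and Fabp4, to 140 to 173 and 142 to 201 FPKM. The pancreas and Brunner gland sums were lowest in mutant 3 and differed widely between libraries. In the pancreas sum every mutant was below every control, narrowly so for mutant 1 (14101 FPKM) and control 3 (14227 FPKM). The 14 tested pancreas rows had a median log2 change of -1.31, mutant minus control, and 0 were called by limma. Of them 6 had an unadjusted limma p under 0.05, as had 467 of all 13596 tested rows. The part of both tissues in the levels of the members was not tested.

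The genes whose course over the 6 libraries was most like that of Duox2, by Pearson r of log2 values, were S100a13 at 0.995, Vta1 at 0.993, Ubxn1 at 0.992, Fam83f at 0.988 and Tmem161b at 0.987. S100a13 was 14.8, 16.1 and 26.2 FPKM in control libraries 1 to 3 and 27.5, 21.5 and 29.1 FPKM in mutant libraries 1 to 3. It shared with Duox2 the low values of controls 1 and 2 and the intermediate mutant 2, over a much smaller range. Closest to Pigr were Ssbp3 at 0.995, Cenph at 0.994, Eng at 0.994, Clic6 at 0.991 and Cdc16 at 0.988. Of 8117 rows with a mean of at least 5 FPKM, 2.12% reached an r of 0.9 or more with Duox2 and 3.57% with Pigr. The named genes are the highest of these 8117 rows, over 6 libraries that fall into separate groups. Their r values are a description only and were not tested.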

How the data were processed

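Per the labels, total RNA of a RIN above 8 was made into TruSeq RNA libraries and sequenced on a HiSeq2000. Build mm9 and the tools TopHat, Cufflinks, CASAVA 1.8.2 and DESeq are named per the submitters' processing notes; options and strand are not given in the sources used here. Per the file headers, the authors' gene and isoform files hold FPKM for each library, and the isoform files also hold coverage, a signal. The authors' own deposited table of the comparison holds mean normalized counts as a signal, their ratio (fold), its log2 and a p-value with its adjusted p-value.

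The 23699 gene rows were filtered to 13596 (0.5 FPKM or more in 3 or more libraries) and compared as log2(FPKM + 0.5) with limma 3.58.1 in R 4.3.3 (statmod 1.5.0, trend and robust prior, two-sided, Benjamini-Hochberg, threshold 0.05). The pseudocount understates fold changes of low genes. Fragments were rebuilt from coverage and length: 92.0% to 93.6% of low isoform values per library lay within 0.1 of a whole number, and the fitted read length was 101 bases. A member under the filter had an exact permutation test. Sequences are from the mm9 genome with GENCODE M1 and were searched with Biopython 1.88; scripts ran in Python 3.11.15. The limma script was tested on simulated data.

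The members and gene lists were chosen with earlier results of these data known. The text names the members, Reg3b, Reg3g, Nkx2-2, from each list genes past the threshold or otherwise the 2 of highest mean FPKM, and the 5 rows most like Duox2 and like Pigr; others are said to be picked after their values were seen. Replicate numbers 1 to 3 recur in both groups without a stated meaning. Same-numbered samples had deviations from group means that correlated at 0.26, 0.25 and 0.58, each above the criterion of 0.1. Control 1 with mutant 2 (0.30) and control 2 with mutant 1 (0.19) also passed it. Deviations within a group sum to 0, so a number 3 that stands apart in both groups raises these values by itself. Numbers 1 and 2 are therefore not shown to be paired, and only number 3 stood apart in both groups.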

Additional observations from a re-analysis of the deposited data

How the results depend on the processing

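The count of members called by limma was 0 under all alternatives run: pseudocounts of 0.1 and 1, no filter, an FPKM minimum of 1, upper quartile and quantile scaling, a plain prior, the replicate number as a block, each library left out, and both libraries numbered 3 left out. The same held for their isoforms. With the replicate block, the limma adjusted p of the tested members ran from 0.518 to 0.942, and 22 of all tested rows were called in place of 3. Signs of changes without a call turned for 4 members. Saa1 (-0.16) was at 0.35 with a pseudocount of 0.1 and at 0.29 without both libraries numbered 3. With 1 library left out Saa1 ranged from -1.26 to 1.39, Saa3 from -0.68 to 0.53, Ubd from -2.86 to 0.071 and B3galt5 from -2.29 to 0.27; positive values came without control 3 and, for Saa1 and Saa3, without mutant 1 or mutant 2 (0.38 and 0.40; 0.14 and 0.17), and for B3galt5 also without mutant 2 (0.0048). Duox2 stayed between 0.84 and 2.12 and Duoxa2 between 1.03 and 2.61. With upper quartile scaling 7 members in place of 8 were highest in both libraries numbered 3, since Duox2 was 6.98 in mutant 1 and 6.82 in control 3. Nos2 dropped out with an FPKM minimum of 1 and without both libraries numbered 3. Saa1 and Saa2 rest on 1 fragment or fewer in most libraries.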

Other observations

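The fit with both libraries numbered 3 left out was chosen after the data were seen. In it 4 of 23 tested rows of other microbe-induced epithelial genes had an adjusted p under 0.05 by limma, against 1.4% of all tested rows. No member did. The 4 were Retnlb (log2 change 8.25), Gsdmc2 (4.53), Ang4 (3.16) and Cxcl10 (1.18), all higher in mutants. From other lists Arg1, St3gal6 and Ctse were called higher there and Cpb1 lower. With all 6 libraries the limma adjusted p was 0.512 for Retnlb and 0.999 for Gsdmc2, Ang4 and Cxcl10. These genes were named after their values were seen, and the lists were chosen with earlier results of these data known. Nothing is therefore read from the 4 of 23. Retnlb, a goblet cell protein that acts on bacteria, was 2.27, 1.42 and 20.9 FPKM in control libraries 1 to 3 and 619, 792 and 478 FPKM in mutant libraries 1 to 3. Retnlb was thus high in all 3 mutants, whatever the level of Reg3b. Ang4, an antimicrobial ribonuclease of Paneth and goblet cells, was 285, 199 and 233 FPKM in control libraries and 2656, 1720 and 379 FPKM in mutant libraries, so it was high in mutants 1 and 2, where Lcn2 and B3galt5 were lowest.

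The ratio of Duox2 to Lcn2 FPKM, one of 3 ratios formed and described after the values were seen, was 0.153, 0.110 and 0.389 in controls 1 to 3 and 2.27, 1.33 and 0.449 in mutants 1 to 3. The groups did not overlap, but by a narrow gap between control 3 and mutant 3. The other ratios, Duoxa2 to Duox2 and Reg3b to Reg3g, did overlap. The ratio joins members already seen to go opposite ways, so nothing is read from this gap. Groups did not overlap in 7.75% of tested gene rows, but that share is for single genes and gives no measure for a ratio. No test was made.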
